A study of Mus musculus with 30 samples.

Results

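The 9 hypoxia and glycolysis response genes Ankrd37, Egln3, Bnip3, Pdk1, Pgk1, Ldha, Ddit4, Hk2 and P4ha1 were followed across 8 groups of mouse brain microvessels. They were chosen as a list of names, with earlier results of these data known. Each gene was read on every array feature set (probe set) that the array annotation pairs with it alone, and the brightest one over all 30 arrays stood for the gene. All 9 were on the array, with 16 probe sets, and all 9 belonged to the 11243 genes tested of 18194 covered. A gene was tested when its signal passed 4 on the log2 scale on at least 3 arrays.

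Cells that run short of oxygen stop hydroxylating the alpha subunits of the hypoxia-inducible factors (HIF-1 alpha and HIF-2 alpha, encoded by Hif1a and Epas1). The stabilised subunits pair with ARNT and bind short DNA cores in target promoters, which raises glucose uptake, glycolysis, lactate production and vessel growth signals. Brain endothelium is bathed in blood and is known for high glucose transport, and HIF targets are often used to ask whether vessel cells or their neighbours sense low oxygen.

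RNA of microvascular fragments, short pieces of vessel freed from brain tissue with their attached cells, was amplified and hybridised to Affymetrix arrays. Both mutant models lack normal supply of platelet-derived growth factor B (PDGF-B), which recruits pericytes, the cells on the outer wall of capillaries. The ret mutants (pdgfbret/ret, C57/B6/J, 7 to 10 months old, 4 arrays) make PDGF-B without the motif that keeps it at the cell surface, in every cell that expresses the gene, and their controls (pdgfbret/+, same strain, 8 to 10 months old, 4 arrays) also carry 1 such allele. No brain region is labelled for either ret group. The R26P mutants (Tie2Cre, R26P+/0, pdgfb-/-, mixed C57/SV129 background, 4 arrays each of cerebellum and cerebrum) lack mouse Pdgfb and express a human PDGF-B transgene where Tie2-Cre, active in endothelium and in blood cells, has acted. Their controls (R26P+/0, pdgfb+/+, same background, 4 arrays of each region) carry the transgene without a labelled Cre, so strain and transgene are shared and the driver is not. Titles give 1 year and age fields 2 months for all R26P animals, so their age is unsettled. Wild-type mice (C57/B6/J Notch3+/+, 2 months old, 3 arrays of each region) had been normalized apart from the other 24 arrays and are compared between their own regions alone.

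Endothelial and erythroid markers matched the labelled tissue. The mean of 9 endothelial marker genes lay between 13.09 and 13.92 on all arrays, and the 3 erythroid markers averaged 2.16 to 2.56, near the array floor. The 4 choroid plexus and ependyma markers tested were also high, with a list mean of 10.12 in ret mutants against 10.27 in ret controls. It was 10.69 in R26P mutant cerebrum against 11.94 in control cerebrum, and 12.07 in mutant cerebellum against 13.05 in control cerebellum. In wild type it was 12.70 in cerebellum and 11.79 in cerebrum. The part of these cells in the results was not tested. Mouse Pdgfb read 4.73 to 8.01 in R26P mutants, against 12.05 to 12.86 in R26P controls, with the mutant arrays of number 3 highest at 8.01 in cerebrum and 7.51 in cerebellum. In ret mutants Pdgfb read 11.71 to 12.51, against 11.72 to 12.12 in ret controls, which checks nothing because the ret allele is still transcribed. Growth hormone (Gh), a transcript of the pituitary, passed 8 in ret mutants 1, 2 and 4, R26P cerebrum mutants 2 and 3, R26P cerebrum controls 2 and 3, R26P mutant cerebellum 3 and wild-type cerebrum 3, and stayed below 5 elsewhere. The part of such tissue in the results was not tested, and the fits without these arrays are given where they were run. Labelled sex was unbalanced: 1 male and 3 female ret mutants stood against 3 male and 1 female ret controls, and 2 male and 2 female R26P mutants against 1 male and 3 female R26P controls. Xist, which female cells express, went against the label on all 4 ret control arrays, with 12.21 to 12.68 on those labelled male and 2.32 on the one labelled female, and fitted it on all other arrays. The 9 pericyte marker genes tested fell in all 3 mutant comparisons, and the list mean was 7.16 to 8.30 in ret mutants against 11.29 to 11.76 in ret controls. It was 7.52 to 9.28 in R26P mutant cerebrum against 12.11 to 12.36 in control cerebrum, and 8.68 to 10.34 in mutant cerebellum against 12.89 to 13.02 in control cerebellum. In such bulk samples fewer cells of a type and less RNA per cell cannot be told apart.

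On build GRCm38.p6 the genes lie at chr8:45996908-46000414 (Ankrd37), chr12:54178981-54203874 (Egln3), chr7:138890836-138909506 (Bnip3), chr2:71873215-71903858 (Pdk1), chrX:106187100-106203699 (Pgk1), chr7:46842274-46855627 (Ldha), chr10:59949675-59951770 (Ddit4), chr6:82725025-82774454 (Hk2) and chr10:59323197-59373304 (P4ha1). The promoters of the 5 members that passed in a mutant comparison are shown here, with the 300 bases from 250 before to 50 after the RefSeq transcription start on build GRCm38.p6, read 5' to 3' on the gene's strand. Capitals mark the HIF binding core, searched as ACGTG and GCGTG and, for the opposite strand, as CACGT and CACGC, so that the palindrome CACGTG counts once on each strand. Ankrd37 lies at chr8:45999801-46000100 on the minus strand, Ddit4 at chr10:59951721-59952020 on the minus strand, Ldha at chr7:46845554-46845853 on the plus strand (the richer of 2 listed starts), Bnip3 at chr7:138909457-138909756 on the minus strand and P4ha1 at chr10:59323046-59323345 on the plus strand.
Ankrd37: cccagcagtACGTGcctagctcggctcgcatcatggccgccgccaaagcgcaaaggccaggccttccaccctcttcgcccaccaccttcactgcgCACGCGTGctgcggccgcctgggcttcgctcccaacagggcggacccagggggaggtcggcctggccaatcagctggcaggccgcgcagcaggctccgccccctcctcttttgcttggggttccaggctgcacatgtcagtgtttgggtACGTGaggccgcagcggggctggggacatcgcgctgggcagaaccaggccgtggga
Ddit4: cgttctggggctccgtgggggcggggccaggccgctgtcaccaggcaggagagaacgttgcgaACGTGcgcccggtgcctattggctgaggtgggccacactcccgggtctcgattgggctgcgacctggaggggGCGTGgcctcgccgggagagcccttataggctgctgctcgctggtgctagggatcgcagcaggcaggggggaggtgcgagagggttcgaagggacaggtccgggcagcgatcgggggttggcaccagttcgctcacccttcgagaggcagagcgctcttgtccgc
Ldha: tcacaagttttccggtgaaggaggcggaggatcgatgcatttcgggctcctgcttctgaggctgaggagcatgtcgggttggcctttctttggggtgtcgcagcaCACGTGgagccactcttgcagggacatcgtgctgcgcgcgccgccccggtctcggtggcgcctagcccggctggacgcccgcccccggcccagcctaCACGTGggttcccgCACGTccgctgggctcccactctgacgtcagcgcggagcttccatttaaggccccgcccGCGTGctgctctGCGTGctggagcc
Bnip3: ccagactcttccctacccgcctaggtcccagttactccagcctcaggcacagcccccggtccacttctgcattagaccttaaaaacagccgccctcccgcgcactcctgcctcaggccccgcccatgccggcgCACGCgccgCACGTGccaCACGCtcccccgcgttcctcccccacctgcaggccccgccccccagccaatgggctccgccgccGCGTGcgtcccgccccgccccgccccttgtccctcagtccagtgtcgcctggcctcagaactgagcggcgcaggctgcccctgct
P4ha1: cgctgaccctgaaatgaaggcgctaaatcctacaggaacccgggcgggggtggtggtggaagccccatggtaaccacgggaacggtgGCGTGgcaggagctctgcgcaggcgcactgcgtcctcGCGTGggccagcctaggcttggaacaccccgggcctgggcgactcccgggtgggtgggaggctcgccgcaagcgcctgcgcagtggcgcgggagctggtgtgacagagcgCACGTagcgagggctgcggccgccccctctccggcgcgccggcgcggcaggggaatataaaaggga
Ankrd37 held 4 matches, at -241, -155, -152 and -6 bases from the start (first base of the match, with the first transcribed base as 0). Bnip3 held 5, of which 4 lie between -117 and -99, P4ha1 held 3 and Ddit4 held 2. Ldha held 7, which include both strands of 2 copies of the palindrome.

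All 9 members had at least 1 match in their richest listed window, from 1 in Egln3 to 7 in Ldha, with a median of 2. Among 9136 tested genes with a listed start, 68.1% had at least 1, 38.7% at least 2 and 19.0% at least 3, and 43.8% of all 32851 listed windows had at least 1. A match says only that these letters are present.

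**Figure D1:**
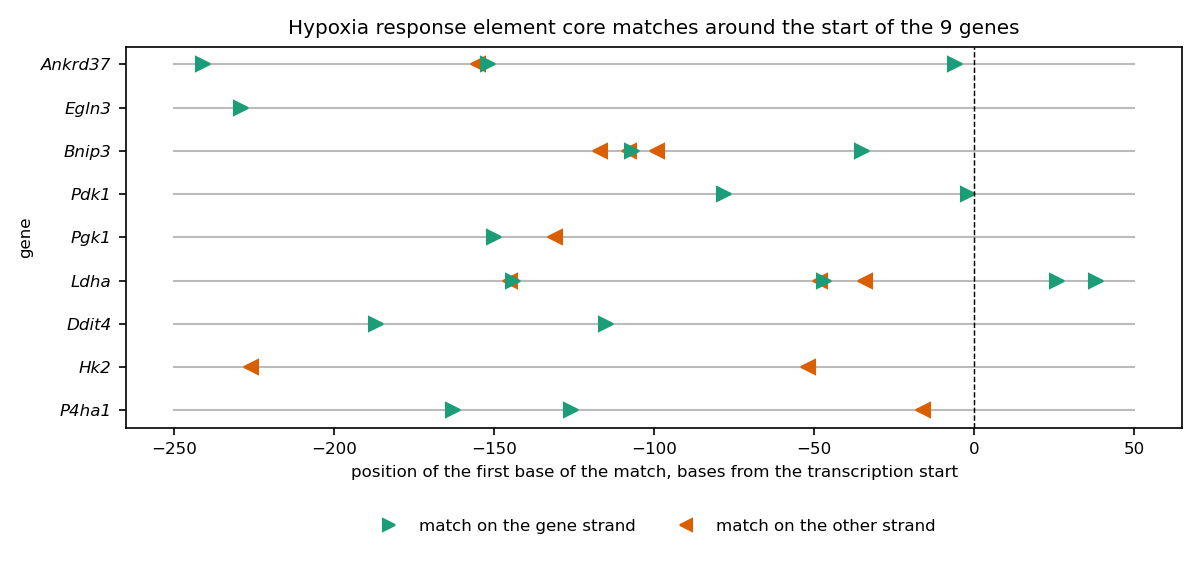
Position of each HIF core match in the promoter windows of the 9 genes, in bases from the transcription start (dashed line), with 1 row per gene and the richer window where 2 starts are listed. Green marks are matches on the gene strand and orange marks those on the other strand; Ldha has the most (7) and Egln3 has 1.

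The ret comparison asks which transcripts differ when PDGF-B is not retained at the vessel wall. Of the 9 genes, 3 fell in ret mutants and 6 did not pass the test (limma, adjusted p below 0.05), where 16.6% of all tested genes passed, 8% higher and 8.63% lower. Ankrd37, Ddit4 and Ldha were the 3, and their groups did not overlap, as in 23.5% of all genes. The median log2 change of the 9 was 0.17, against 0.01 over all tested genes, and 6 of the 9 changes were positive.

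Ankrd37, a small ankyrin-repeat protein whose RNA is raised by HIF-1 in many cell types, had a log2 signal of 8.38, 8.52, 9.48 and 7.78 in ret mutants, against 9.77, 10.01, 9.95 and 10.01 in ret controls. The controls lay close together and the mutants were spread over a wider range below them, with mutant 3 nearest to the controls. The change was -1.40 ± 0.32 (SE), a 2.63-fold fall with a limma adjusted p of 0.0232. Ddit4, also called REDD1, restrains the growth kinase complex mTORC1 and is induced by low oxygen, glucocorticoids and other stresses. It read 11.74, 11.61, 12.32 and 11.78 in ret mutants, against 12.92, 14.17, 14.50 and 12.96 in ret controls. Here the mutants were close together and the controls fell into a higher and a lower pair, all above the mutants. The log2 change was -1.78 ± 0.39 (SE), a 3.42-fold fall (limma adjusted p = 0.0206).

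Ldha, the lactate dehydrogenase subunit that favours lactate production, had signals of 13.93, 13.85, 14.12 and 13.68 in ret mutants, against 14.66, 14.51, 14.33 and 14.25 in ret controls. Every mutant lay below every control, by a small margin, and the fall was 1.46-fold (log2 change -0.54 ± 0.13 (SE), limma adjusted p = 0.0254). Mutant 3, the 1 ret mutant array with low Gh, had the highest signal of its group for all 3 of these genes. With the other 3 mutant arrays left out, no member passed: Ankrd37 stood at -0.46 (adjusted p = 0.114), Ldha at -0.31 (adjusted p = 0.38) and Ddit4 at -1.32 (adjusted p = 0.371), with the lone mutant assumed to vary like the controls. All 3 also missed the threshold when every covered gene was tested without a filter on low signal (adjusted p = 0.0603 to 0.07), and leaving out 1 array in turn left between 0 and 3 members called. Over these 8 fits Ankrd37 passed in 2, without mutant 3 and without mutant 4, Ldha in 5 and Ddit4 in 6 (adjusted p up to 0.0735).

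The other 6 genes did not pass in ret mutants. Bnip3, an outer mitochondrial membrane protein that marks mitochondria for removal, read 12.28 to 12.75 in ret mutants, against 12.03 to 12.44 in ret controls (log2 change 0.32 ± 0.15, SE). Egln3, the oxygen-sensing HIF prolyl hydroxylase that is itself a HIF target, was at or near background: it read 3.61 on 3 ret mutant arrays and 4.21 on mutant 3, against 2.18 to 3.61 in ret controls. Pdk1, the kinase that switches off pyruvate dehydrogenase, changed by 0.17 ± 0.15 and Pgk1, a glycolytic kinase that makes ATP, by 0.11 ± 0.11 on the log2 scale (SE). Hk2, an inducible hexokinase that starts glycolysis, changed by 0.40 ± 0.23, and P4ha1, the catalytic subunit of collagen prolyl hydroxylase, by 0.22 ± 0.19.

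**Figure D2:**
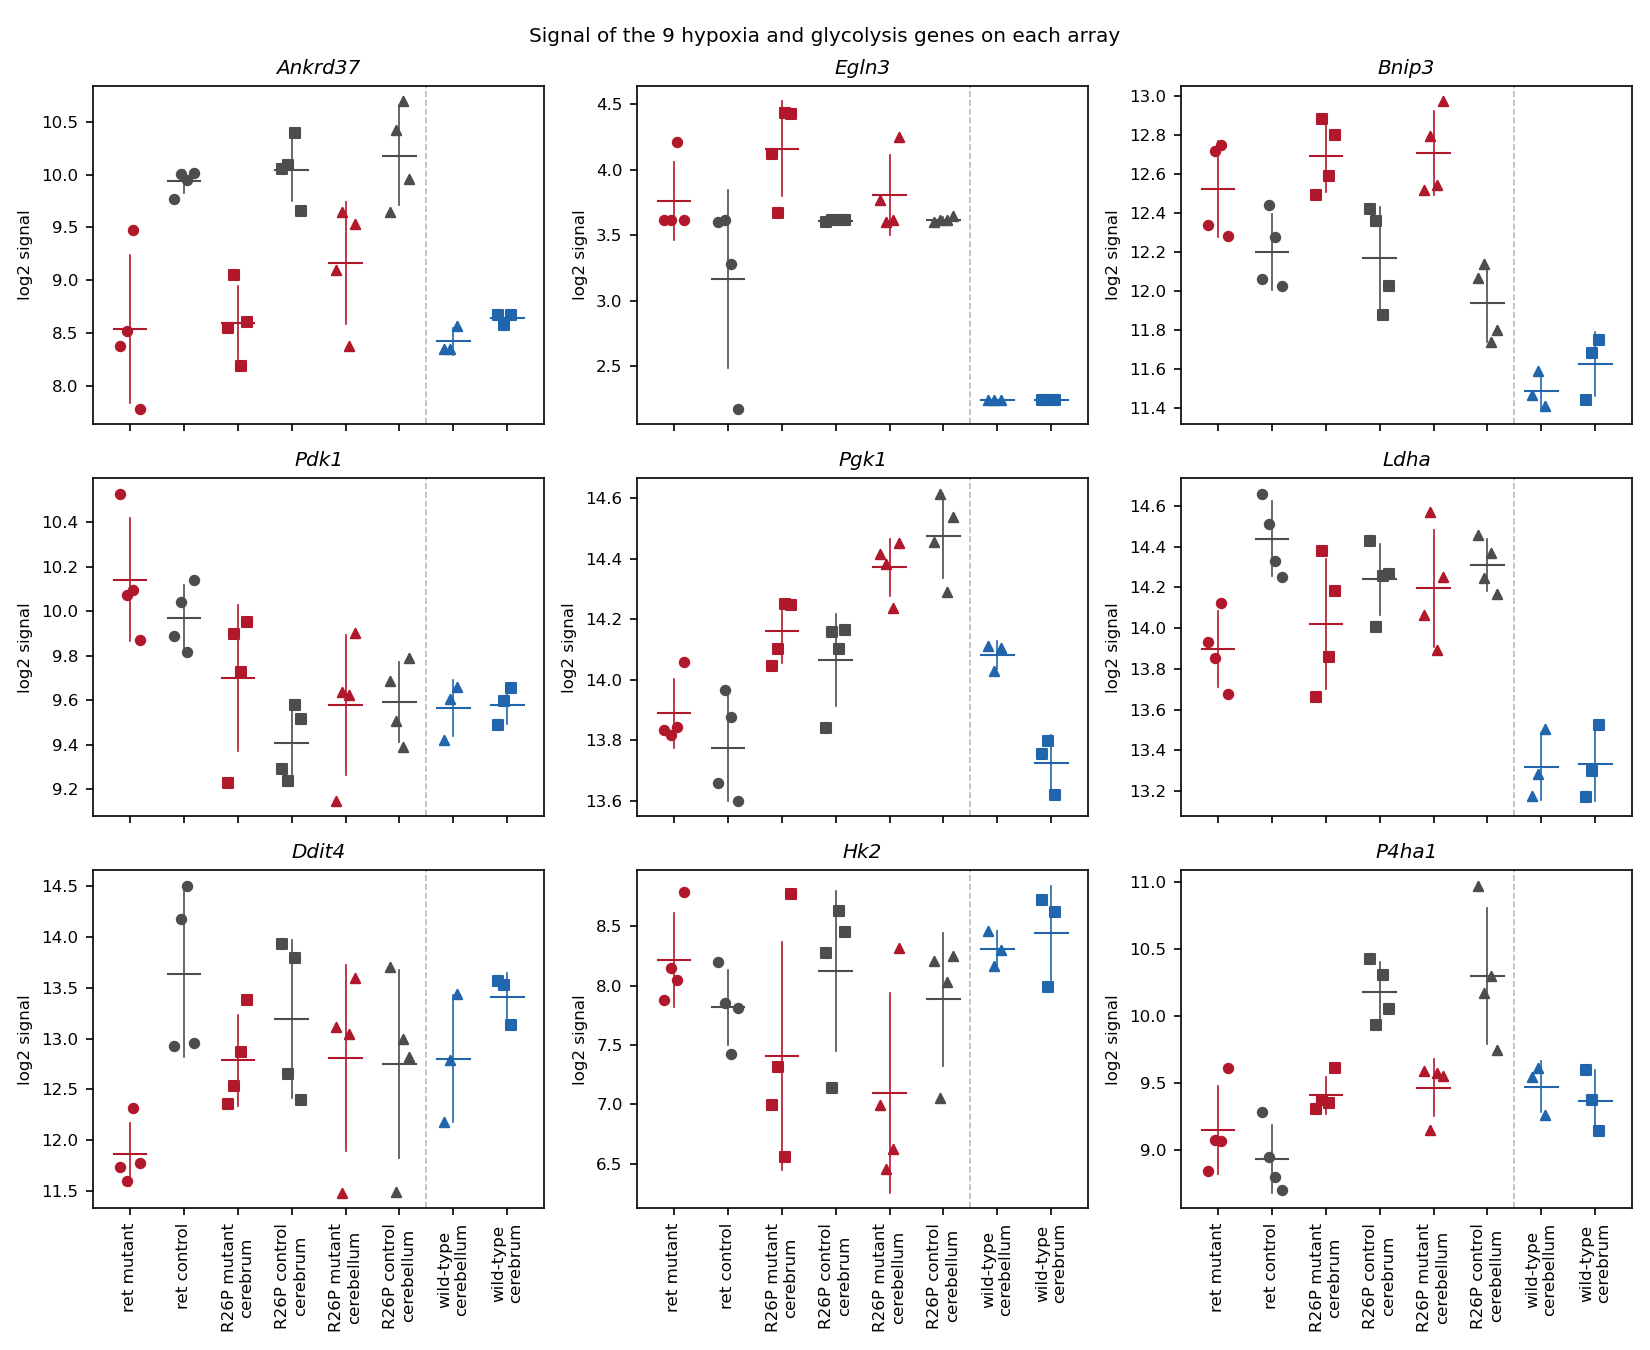
Log2 signal of each of the 9 genes (1 panel each, own y axis) on all 30 arrays by group, with the group mean as a horizontal line and the SD as a vertical line. Ankrd37 is lower in all 3 mutant groups than in their controls, Bnip3 higher in both R26P mutant groups, and P4ha1 lower in both R26P mutant groups; wild-type arrays, right of the dashed line, were normalized apart, so their height cannot be set against the other groups.

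In R26P mutant cerebrum, Ankrd37 and P4ha1 fell and Bnip3 rose, and 6 genes did not pass, where 18.7% of all tested genes passed, 8.35% higher and 10.3% lower. Ankrd37 read 8.54, 9.05, 8.18 and 8.60 in mutant cerebrum, against 10.06, 10.09, 10.39 and 9.65 in control cerebrum. The groups lay well apart, with all mutants below all controls, and the fall was 2.74-fold (log2 change -1.46 ± 0.21 (SE), limma adjusted p = 0.00333). P4ha1 read 9.31, 9.37, 9.35 and 9.61 in mutant cerebrum, against 10.43, 9.94, 10.31 and 10.05 in control cerebrum. The mutants were nearly alike and all below the controls, a 1.71-fold fall (log2 change -0.77 ± 0.13 (SE), limma adjusted p = 0.00615). Both falls passed without any 1 of the 8 arrays (adjusted p at most 0.0209).

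Bnip3 read 12.49, 12.88, 12.59 and 12.80 in mutant cerebrum, against 12.42, 12.36, 11.88 and 12.03 in control cerebrum. All mutants were above all controls, though mutant 1 and control 1 nearly met, and the rise was 1.43-fold (log2 change 0.52 ± 0.15 (SE), limma adjusted p = 0.0484). This call was at the threshold and was lost in 7 of the 8 fits that left out 1 array (adjusted p up to 0.11) and with each array's Xist signal, a stand-in for sex, as a covariate in place of the labelled sex (adjusted p = 0.0681). With the 4 cerebrum arrays that had Gh above 8 left out, a choice made after seeing the data, no member passed. Ankrd37 then stood at -1.28 (adjusted p = 0.0767), P4ha1 at -0.78 (adjusted p = 0.177) and Bnip3 at 0.42 (adjusted p = 0.363), with 237 genes called in all.

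Ankrd37, P4ha1 and Bnip3 were without overlap between groups in R26P cerebrum, as 25.9% of all genes were. Egln3 is left out of that count, since it was near background and entered the test through mutant arrays. It read 4.12, 3.67, 4.43 and 4.43 in mutant cerebrum, against 3.60, 3.61, 3.61 and 3.61 in control cerebrum. All 5 arrays with Egln3 above 4 belong to mutants, and its log2 change of 0.55 is given as a value only. Of the remaining 5 genes, Hk2 changed by -0.71 ± 0.52, Ddit4 by -0.41 ± 0.40, Pdk1 by 0.29 ± 0.17, Ldha by -0.22 ± 0.17 and Pgk1 by 0.10 ± 0.10 on the log2 scale (SE), with overlapping groups in each.

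In R26P mutant cerebellum Bnip3 was the 1 member that passed, where 15.6% of all tested genes passed, 6.94% higher and 8.7% lower. It read 12.52, 12.80, 12.55 and 12.97 in mutant cerebellum, against 12.07, 12.14, 11.74 and 11.80 in control cerebellum. Mutants and controls were clearly apart, and the rise was 1.71-fold (log2 change 0.77 ± 0.14 (SE), limma adjusted p = 0.0102). It passed without any 1 of the 8 arrays (adjusted p 0.0157 to 0.0314).

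Ankrd37 and P4ha1 did not pass in cerebellum although their groups did not overlap, so that 3 of 9 members had no overlap, where 22.8% of all genes had none. Ankrd37 read 9.10, 9.65, 8.38 and 9.54 in mutant cerebellum, against 9.65, 10.42, 10.70 and 9.96 in control cerebellum. Mutant 2 and control 1 came within rounding of each other, and the log2 change was -1.02 ± 0.33 (SE, limma adjusted p = 0.0759), and -0.75 without mutant 3. P4ha1 read 9.59, 9.15, 9.57 and 9.55 in mutant cerebellum, against 10.98, 10.17, 10.30 and 9.75 in control cerebellum. The controls were spread widely above the mutants, and the log2 change was -0.83 ± 0.25 (SE, limma adjusted p = 0.059). Where the spread was estimated over all 24 ret and R26P arrays, both passed (adjusted p = 0.0245 for Ankrd37 and 0.00626 for P4ha1).

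Ddit4 varied more among the arrays of a group than between R26P mutants and controls. It read 13.11, 11.48, 13.05 and 13.60 in mutant cerebellum, against 13.70, 11.49, 13.00 and 12.82 in control cerebellum, so 1 array of each group was far below the others. In cerebrum it read 12.36, 12.54, 12.87 and 13.38 in mutants, against 13.93, 12.65, 13.79 and 12.40 in controls, with 2 high and 2 low controls as in the ret controls. The log2 change in cerebellum was 0.06 ± 0.57 (SE). Pdk1 at -0.02 ± 0.17, Pgk1 at -0.10 ± 0.09, Ldha at -0.12 ± 0.15, Egln3 at 0.19 ± 0.15 and Hk2 at -0.79 ± 0.45 also had overlapping groups in cerebellum.

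**Figure D3:**
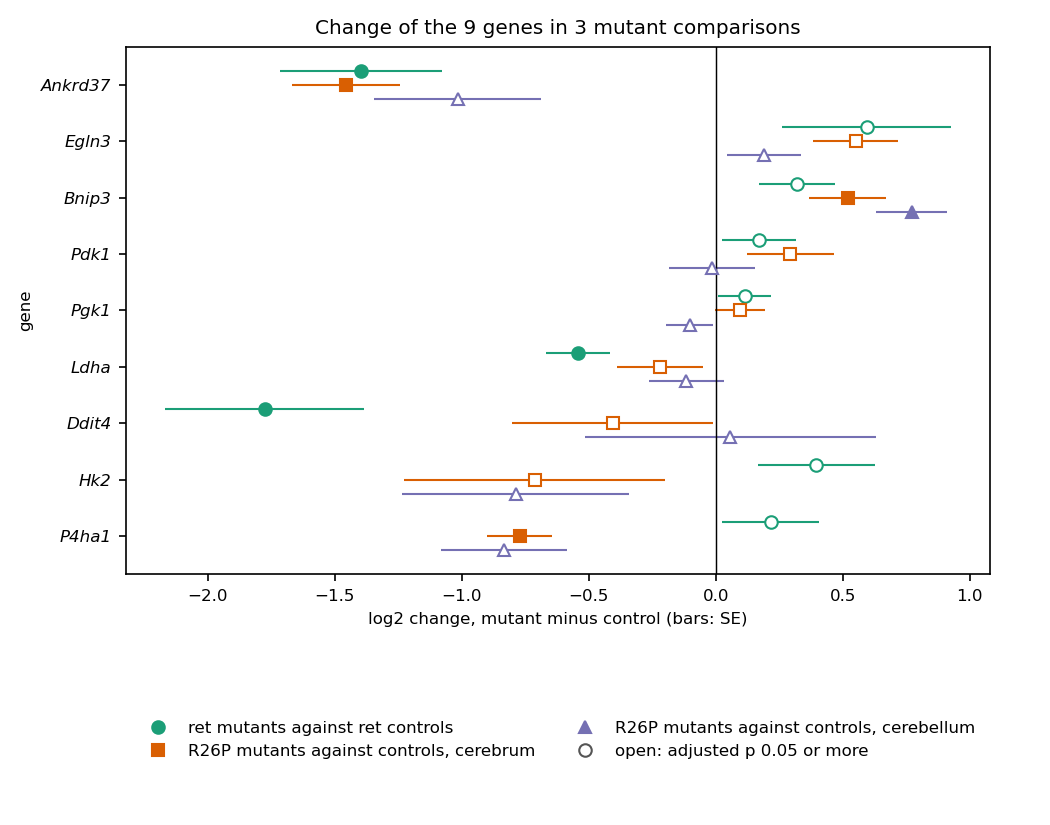
Log2 change of the 9 genes, mutant minus control, in ret mutants, R26P cerebrum and R26P cerebellum, with SE as bars; filled marks have an adjusted p below 0.05. Ankrd37 lies between -1.46 and -1.02 in all 3, Bnip3 between 0.32 and 0.77, and P4ha1 is at 0.22 in ret mutants but at -0.77 and -0.83 in R26P mutants.

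Set side by side, Ankrd37 was the 1 member whose groups did not overlap in the same direction in all 3 mutant comparisons, where 6.43% of all tested genes had this pattern. No member passed the test in all 3, where 4.86% of all genes did. Over the 6 ret and R26P groups, which were normalized together, Ankrd37 had its highest mean in R26P control cerebellum (10.18 ± 0.47, SD, n = 4), then in R26P control cerebrum (10.05 ± 0.30) and ret controls (9.94 ± 0.11), and these 3 overlapped. Below them came mutant cerebellum (9.16 ± 0.58), mutant cerebrum (8.59 ± 0.35) and ret mutants (8.54 ± 0.70), which again overlapped. Controls and mutants did not overlap, but nearly met. The highest mutant cerebellum array read 9.646, and the lowest arrays of R26P control cerebellum and control cerebrum read 9.649 and 9.655. For P4ha1 the 2 R26P control groups (10.30 ± 0.51 in cerebellum and 10.18 ± 0.23 in cerebrum) stood above the other 4 groups, whose means ran between 8.93 and 9.47. For the other 7 genes every group overlapped its neighbour in the order of means.

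The difference between the ret effect and the R26P cerebrum effect passed for P4ha1 alone among the 9, where 3.35% of all genes passed. P4ha1 changed by 0.22 in ret mutants and by -0.77 in R26P mutant cerebrum, a difference of 0.99 ± 0.24 (SE, limma adjusted p = 0.0382). The call was lost in 11 of the 16 fits without 1 array (adjusted p up to 0.0773), without the filter on low signal (adjusted p = 0.0758), with the spread over 24 arrays (0.0519) and without all arrays with Gh above 8 (0.284). With both P4ha1 probe sets averaged, of which the second did not pass the filter on its own, the difference was 0.585 (adjusted p = 0.073). Strain differs between the models along with the allele, and cannot be told apart from it, and age and region are not labelled well enough to be compared. From the pathway lists Lox, an enzyme that links collagen, had a difference of 1.41, Nrn1, a neuronal protein, 2.04, and Ldhb 1.02, and Klf9, a glucocorticoid target, -0.55, with adjusted p of 0.0358, 0.0246, 0.0304 and 0.0196. For Ddit4 the difference was -1.37 ± 0.58 (SE, adjusted p = 0.192) and for Hk2 1.11 ± 0.59 (SE, adjusted p = 0.29), neither past the threshold. In the test of the R26P effect in cerebellum against that in cerebrum, 0 of 9 members passed by limma, where 0.116% of all genes passed. An unadjusted p below 0.05 was found for 0 members and for 309 of all 11243 tested genes. Ankrd37 had a difference of 0.44 ± 0.41 and Bnip3 of 0.25 ± 0.21 on the log2 scale (SE). That fit treated the arrays of the regions as independent, although replicate numbers paired them, so these SEs do not use the pairing.

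Between regions of the same genotype no member passed. In wild type 0 of 9 passed by limma, where 2.12% of all genes passed. An unadjusted p below 0.05 was found for 2 of 9 members and for 1788 of all 11243 tested genes. Pgk1 read 14.11, 14.03 and 14.11 in wild-type cerebellum, against 13.76, 13.80 and 13.62 in wild-type cerebrum. The regions did not overlap, as in 21.7% of all genes, and the log2 change was 0.36 ± 0.07 (SE, limma adjusted p = 0.0786). It passed with an intensity trend and robust prior (adjusted p = 0.0238). Ankrd37 read 8.35, 8.35 and 8.56 in wild-type cerebellum, against 8.67, 8.58 and 8.67 in wild-type cerebrum, a small difference (-0.22 ± 0.08, SE, adjusted p = 0.273) without overlap.

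Pgk1 leaned the same way in R26P animals. It read 14.46, 14.62, 14.29 and 14.54 in R26P control cerebellum, against 13.84, 14.16, 14.10 and 14.16 in R26P control cerebrum (log2 change 0.41 ± 0.11, SE, limma adjusted p = 0.139). The groups did not overlap there, where 8.12% of all genes had no overlap and 1.17% passed. In R26P mutants it read 14.41, 14.38, 14.24 and 14.45 in cerebellum, against 14.04, 14.10, 14.25 and 14.25 in cerebrum, with a slight overlap and a log2 change of 0.21 ± 0.08 (SE, adjusted p = 0.776). There 0 of 9 members were without overlap, where 2.77% of all genes were, and 0% of all genes passed by limma, with 621 at an unadjusted p below 0.05. With the paired replicate number as a block, 135 genes in place of 238 passed in wild type and 475 in place of 132 in R26P controls, and again no member. Ddit4 changed by -0.61 ± 0.32 in wild type and -0.44 ± 0.53 in R26P controls, with overlapping regions. In wild type 6 of 14 immediate early and heat shock genes were higher in cerebellum, among them Fosb (9.82-fold, adjusted p = 0.00518).

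Over the 24 ret and R26P arrays, which share 1 normalization, Pearson's r for the 36 pairs of members had a median of 0.01, and 18 pairs were positive. It was highest for Ankrd37 and Ldha (0.71) and lowest for Pdk1 and P4ha1 (-0.59). With group means removed the median was 0.15, with 27 pairs positive and Ankrd37 and Ldha again highest (0.53). The genes most like the mean of the members' standardised signals were Fam3a (r = 0.76), Ccl9 (0.71), Arhgap15 (0.70), S100a6 (0.69) and Cebpb (0.68). With group means removed they were S100a4 (0.83), Fgl2 (0.79), Kansl1l (0.76), Fam3a (0.75) and Arhgap15 (0.75). The mean gave Egln3, which was near background, the same weight as the others. It did not follow every member: its r was -0.02 with Pdk1 and 0.04 with Bnip3, against 0.61 with Ldha. With group means removed, r ran from 0.31 for Pgk1 to 0.65 for Ldha. Each member is itself part of the mean, which by construction shifts its r with the mean upwards. These values describe the 24 arrays and carry no test.

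Of 9 genes for oxygen sensing and HIF subunits, 1 rose and 2 fell in ret mutants, and 2 fell in R26P cerebrum. None passed in R26P cerebellum, where 4 had an unadjusted p below 0.05 by limma, as did 3556 of all 11243 tested genes. Hif1a, Epas1 and Arnt did not pass in any of the 3, with log2 changes of -0.11 to 0.27. Egln1, the main HIF prolyl hydroxylase, read 11.36 to 11.60 in ret mutants against 11.87 to 11.99 in ret controls (1.37-fold lower, adjusted p = 0.00582). In R26P cerebrum it read 11.33 to 11.71 in mutants against 11.93 to 12.25 in controls (1.36-fold lower, adjusted p = 0.0347). Vhl, the ubiquitin ligase subunit that takes hydroxylated HIF to degradation, was 1.28-fold higher in ret mutants (adjusted p = 0.0236). Arnt2 was 3.06-fold lower in R26P mutant cerebrum (adjusted p = 0.0107).

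Other HIF target genes split in both directions. Of 25 tested, 8 rose and 5 fell in ret mutants, 4 rose and 4 fell in R26P cerebrum, and 3 rose and 4 fell in R26P cerebellum. Their median log2 changes were 0.08, -0.07 and -0.12, against 0.01, 0.01 and 0.00 over all genes. Of all tested genes 8% rose and 8.63% fell in ret mutants. In R26P cerebrum 8.35% rose and 10.3% fell, and in R26P cerebellum 6.94% rose and 8.7% fell. Apln, Adm and Pfkfb3 rose in all 3, as did 227 of all 11243 tested genes. Apln, a peptide of sprouting endothelial tips, read 10.13 to 10.71 in ret mutants against 5.82 to 6.85 in ret controls (16.5-fold higher, adjusted p = 0.000105), and was 26.3-fold and 18.3-fold higher in R26P mutant cerebrum and cerebellum. Adm, which encodes the vasodilator adrenomedullin, read 12.31 to 14.12 in ret mutants against 9.03 to 10.33 in ret controls (9.52-fold higher, adjusted p = 0.00328). Pfkfb3, which makes the activator of phosphofructokinase and drives endothelial glycolysis, rose 1.98-fold in ret mutants, 2.84-fold in R26P cerebrum and 2.90-fold in R26P cerebellum.

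Hmox1, the haem-degrading enzyme, rose 5-fold in ret mutants (adjusted p = 0.00623), and Nrn1 fell 3.69-fold in R26P cerebrum (adjusted p = 0.013). Ppp1r3c and Bhlhe40 fell in all 3, as did 319 of all 11243 tested genes. Ppp1r3c, a glycogen-targeting subunit of protein phosphatase 1, fell 2.97-fold, 8.66-fold and 5.70-fold in ret mutants, R26P cerebrum and R26P cerebellum. Bhlhe40, a transcriptional repressor, fell 2.99-fold, 2.53-fold and 1.75-fold in the same order. Vegfa, the vessel growth factor, rose 2.93-fold in ret mutants (adjusted p = 0.0183) and 3.19-fold in R26P cerebrum (adjusted p = 0.0016), and its 0.68 ± 0.22 (SE) in R26P cerebellum did not pass (adjusted p = 0.0799). P4ha2, the sister subunit of P4ha1, fell 4.08-fold in ret mutants (adjusted p = 0.00568), where P4ha1 did not pass, and in R26P cerebrum its -0.59 ± 0.24 (SE) did not pass (adjusted p = 0.123), where P4ha1 fell. Slc2a1, the glucose carrier of brain endothelium and a HIF target, read 14.91 to 14.97 in ret mutants against 14.96 to 15.15 in ret controls, and did not pass in any of the 3.

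**Figure D4:**
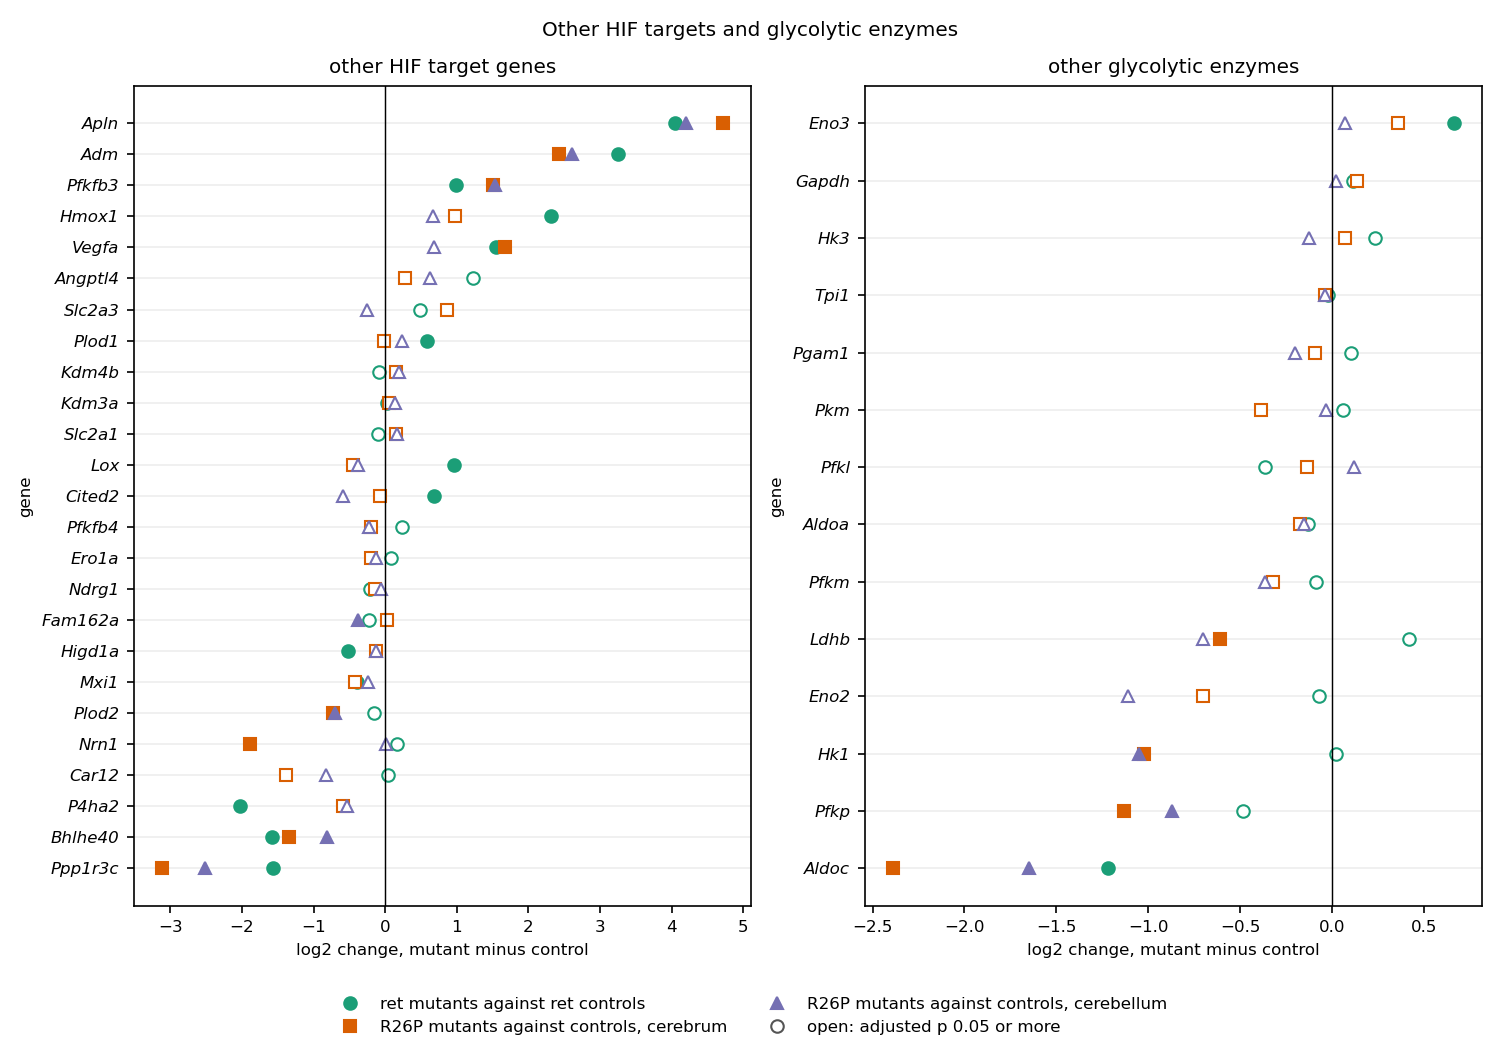
Log2 change, mutant minus control, of 25 other HIF target genes (left) and 14 other glycolytic enzymes (right) in the 3 mutant comparisons, with filled marks for an adjusted p below 0.05. Apln, Adm and Pfkfb3 lie to the right and Ppp1r3c, Bhlhe40 and Aldoc to the left in all 3. Of the 14 glycolytic enzymes, 7 have a positive change in ret mutants (median -0.004). In R26P cerebrum and cerebellum 3 of 14 do (medians -0.249 and -0.179).

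Among 14 other glycolytic enzymes, Eno3 rose and Aldoc fell in ret mutants, 4 fell in R26P cerebrum and 3 fell in R26P cerebellum. Aldoc, an aldolase of astrocytes, read 10.70 to 11.66 in ret mutants against 11.88 to 12.44 in ret controls (2.33-fold lower), and fell 5.24-fold and 3.14-fold in R26P mutant cerebrum and cerebellum. Hk1, the constitutive hexokinase, fell 2.03-fold in R26P cerebrum and 2.07-fold in cerebellum, and Pfkp, a phosphofructokinase, 2.19-fold and 1.83-fold. Ldhb, the lactate dehydrogenase subunit partner of Ldha, fell 1.52-fold in R26P cerebrum (adjusted p = 0.0253). Of 9 genes for entry of pyruvate into mitochondria, Pdha1, a subunit of the enzyme that Pdk1 inhibits, fell in all 3 by 1.32-fold to 1.45-fold, Pdk4 fell in both R26P regions and Pdk3 rose in ret mutants. Of 6 monocarboxylate and glucose carriers, the lactate carrier Slc16a1 fell 3.55-fold in R26P cerebrum and 2.11-fold in R26P cerebellum, and Slc2a4, the insulin-responsive glucose carrier, fell in all 3 by 1.17-fold to 2.75-fold.

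Ddit4l, the paralog of Ddit4, fell in all 3 comparisons. It read 6.06 to 7.95 in ret mutants against 9.45 to 9.72 in ret controls (6.87-fold lower, limma adjusted p = 0.00328), and was 7.22-fold and 6.96-fold lower in R26P mutant cerebrum and cerebellum. Unlike for Ddit4, the groups did not overlap in any of the 3. Of the 12 mTOR and BH3 genes tested, 0 rose and 1 fell in ret mutants, 0 rose and 2 fell in R26P cerebrum, and 2 rose and 2 fell in R26P cerebellum. Sesn3, a stress-induced mTORC1 inhibitor, was the other gene that fell in both R26P regions, 2.49-fold in cerebrum and 2.58-fold in cerebellum. Of 12 glucocorticoid response genes, 1 rose and 1 fell in ret mutants and 2 rose and 1 fell in each R26P region, and Sgk1 rose in all 3 by 1.49-fold to 1.65-fold. Mt1, a metallothionein, rose 2.10-fold in R26P cerebrum and 2.18-fold in R26P cerebellum. Of 14 immediate early and heat shock genes, 1 rose in ret mutants and 1 fell in each R26P region.

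Without the arrays with Gh above 8, a choice made after seeing the data, 4 of the 25 HIF targets rose and 2 fell in ret mutants (1 mutant array left), 1 rose and 1 fell in R26P cerebrum (2 arrays a group left), and 3 rose and 2 fell in R26P cerebellum. Apln, Ppp1r3c, Aldoc and Ddit4l passed in all 3 of these fits. Adm passed in ret mutants and R26P cerebellum but not in R26P cerebrum (8.03-fold, adjusted p = 0.087). In ret mutants Vegfa stood at 1.59-fold (adjusted p = 0.406) and Bhlhe40 at 1.64-fold lower (adjusted p = 0.13), and Pfkfb3 (adjusted p = 0.198), Egln1 (0.11) and Vhl (0.2) also missed the threshold. All pathway genes called with every array kept their sign.

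Markers of other cell types moved with several of these genes. Ankrd37 was low on the arrays where the pericyte list was low, but within each mutant group the order differed. Ret mutant 3 had Ankrd37 at 9.48 with the list at 7.23, and ret mutant 4 had 7.78 with the list at 8.30. R26P mutant cerebrum 3 had the lowest Ankrd37 of its group, 8.18, with the highest list mean, 9.28. In R26P mutant cerebellum, array 4 had 9.54 with the lowest list mean, 8.68, and array 3 had 8.38 with 9.74. Array 2 of that group was highest for both, at 9.65 and 10.34. Of 9 astrocyte markers tested, 6, 8 and 7 fell in ret mutants, R26P cerebrum and R26P cerebellum. The list mean was 7.83 to 8.46 in ret mutants against 8.88 to 9.49 in ret controls, and Aldoc is on that list. In R26P mutants 4 of 6 fibroblast markers fell in each region, beside P4ha1: the list mean was 6.36 to 7.43 in mutant cerebrum against 7.72 to 8.61 in control cerebrum, and 7.74 to 8.05 in mutant cerebellum against 9.12 to 10.17 in control cerebellum. In ret mutants, where P4ha1 did not pass, 1 of 6 fell. Across these groups the 2 were not always in the same order. The fibroblast list mean was 7.08 in ret controls with P4ha1 at 8.93, and 6.81 in R26P mutant cerebrum with P4ha1 at 9.41. In R26P mutant cerebellum the list mean was 7.95, with P4ha1 at 9.47. Of 7 smooth muscle markers 7 fell in R26P cerebrum, 2 in R26P cerebellum and 0 in ret mutants by limma, where 6 had an unadjusted p below 0.05. That list averaged 9.01 to 10.08 in R26P mutant cerebrum against 10.82 to 11.48 in control cerebrum, 8.89 to 10.73 in mutant cerebellum against 10.57 to 11.42 in control cerebellum, and 7.43 to 9.27 in ret mutants against 8.91 to 10.20 in ret controls. The part of these cells in the changes of Ankrd37, P4ha1 and Aldoc was not tested.

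Hk2 was high on arrays where the mean of the 10 microglia and macrophage markers was high. In R26P mutant cerebrum it read 7.00, 7.31, 6.55 and 8.77 while the list mean read 9.25, 9.95, 9.40 and 10.83. In R26P control cerebrum it read 8.28, 7.14, 8.63 and 8.45 with the list at 10.75, 9.94, 11.06 and 10.87. In mutant cerebellum the highest Hk2, 8.31 on array 4, stood with the highest list mean of that group, 10.44, and the highest Hk2 of ret mutants, 8.79 on array 4, with the highest list mean of that group, 11.06. Of the 10 markers 0 passed in ret mutants by limma, 3 fell in R26P cerebrum and 2 fell in R26P cerebellum. In ret mutants 3 of the 10 had an unadjusted p below 0.05, as did 3674 of all 11243 tested genes. The 5 blood leukocyte markers tested were high on 2 of the same arrays: their mean was 9.77 on mutant cerebrum 4 (7.13 to 7.16 on the other 3) and 9.42 on mutant cerebellum 4 (6.38 to 7.19 on the other 3). Of these 5, 4 rose in ret mutants, where their mean was 7.64 to 8.23 against 5.38 to 6.01 in ret controls, 1 rose in R26P cerebrum and 0 passed in R26P cerebellum (0 at an unadjusted p below 0.05). The part of microglia and of leukocytes in the Hk2 signal was not tested.

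**Figure D5:**
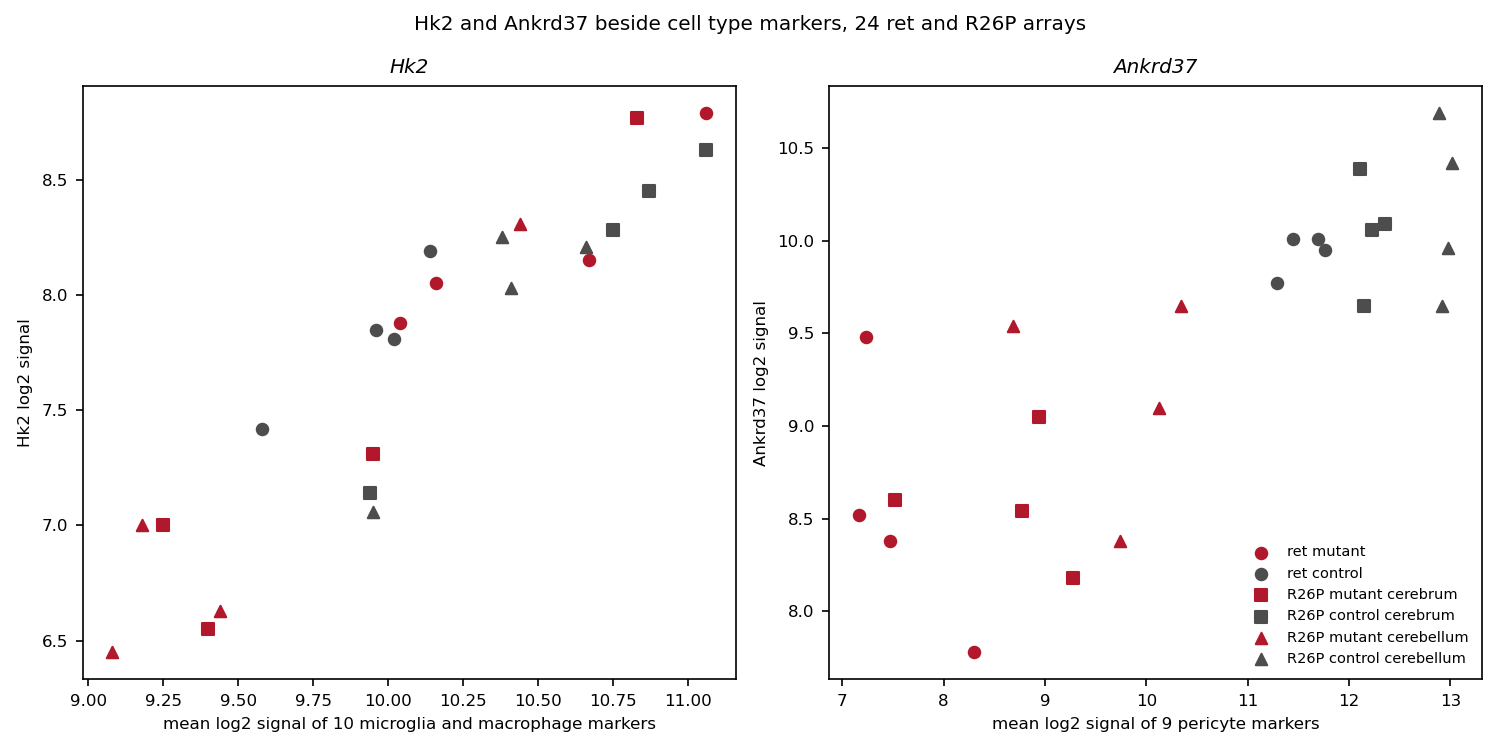
Hk2 against the mean log2 signal of 10 microglia and macrophage markers (left) and Ankrd37 against that of 9 pericyte markers (right), 1 point per ret or R26P array. Hk2 is near 6.5 to 7 on the arrays with a list mean under 9.5 and above 8 on those over 10.5. In the right panel mutant and control arrays are apart along the pericyte axis, while along the Ankrd37 axis they meet at 9.65.

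The probe sets of a gene were compared where it had more than 1. All 3 probe sets of Pgk1 were tested, and their ret changes lay between 0.00 and 0.11. Of 4 probe sets of Pdk1, 3 were tested and changed by -0.08 to 0.44 in ret mutants, none of them past the threshold. The second probe sets of Egln3 and P4ha1 did not reach the signal needed for a test, so both genes rest on 1 probe set, as Ankrd37, Bnip3, Ldha, Ddit4 and Hk2 do.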

How the data were processed

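Microvascular fragments of mouse brain were measured on 30 Affymetrix arrays in 8 groups. The submitters' processing notes name GCRMA 2.6.0 and R 2.4.1, and the values as deposited are on a log2 scale. About 100 ng of total RNA was amplified per array, per the labels' protocols. From there everything was computed in R 4.3.3 with limma 3.58.1. The 24 ret and R26P arrays share a floor of 2.16 and the 6 wild-type arrays one of 2.17, so wild type was tested between its regions alone. Of 45101 probe sets, 34958 are paired with 1 gene, 932 with several and 9211 with none; the probe set with the highest mean stood for a gene, and the 11243 genes above 4 on at least 3 arrays were tested with lmFit and eBayes on the groups of each comparison, with Benjamini-Hochberg adjustment over all of them and a threshold of 0.05. Named were all 9 members and, from each pathway list, up to 4 genes past the threshold in a mutant comparison (largest change first, or the 2 brightest where none passed) and up to 2 in each other comparison, not all of which are printed. Vegfa, Bhlhe40, Slc2a1, Hif1a, Epas1 and Arnt were named after their values were seen. The members and lists were chosen with earlier results of these data known. The labels call the replicates biological without saying how many animals each holds, and the number of arrays limits the precision. Replicate numbers paired the regions (correlation of same-numbered deviations 0.344 to 0.84, each array closest to its own number) but not mutants with controls (-0.199 to 0.337). The fits were tested on simulated data. Promoter sequences are from RefSeq, build GRCm38.p6.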

Additional observations from a re-analysis of the deposited data

Results flagged for a closer look

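In 4 of the 54 groups of 4 arrays 1 array stood apart from the other 3 relative to the range of its group. Chance does this in about 1 in 20 groups of independent, normally distributed values. That rate does not hold for Egln3, which has tied values, and the genes share the same arrays. Egln3 read 4.21 in ret mutant 3, where the other 3 mutants read 3.61, and 3.6 in R26P control cerebrum 1, where the others read 3.61, both near the array background. Pgk1 read 14.06 in ret mutant 4, where the others read 13.82 to 13.84. P4ha1 read 9.15 in R26P mutant cerebellum 2, where the others read 9.55 to 9.59. The effect on P4ha1 differed between the models, by 0.988 on the log2 scale for the ret effect minus the R26P cerebrum effect (limma adjusted p = 0.0382).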

How the results depend on the processing

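Calls were recomputed under each alternative. Without the filter on low signal the genes called were 1229 in ret mutants, 1390 in R26P cerebrum, 1081 in R26P cerebellum, 58 between wild-type regions, 47 between R26P control regions, 1 between R26P mutant regions, 6 for the difference of R26P effects between regions and 177 for the difference between models, against 1870, 2097, 1758, 238, 132, 0, 13 and 377, and 0 members were called in ret mutants and for the model difference. With a mean signal above 6, 151 genes passed between wild-type regions, 0 for the region difference of R26P effects, and 2 members in R26P cerebellum. With probe sets of a gene averaged, 68 genes passed between R26P control regions, 4 for the region difference and 0 members for the model difference. An intensity trend with a robust prior gave 2 members in R26P cerebellum and 1 between wild-type regions. The spread over all 24 arrays gave 3 members in R26P cerebellum, 1 between R26P control regions (Pgk1, adjusted p = 0.0359) and 0 for the model difference, with 6 genes between R26P mutant regions and 596 for the model difference; it was not applicable to wild type. With the replicate block, 987 genes and 1 member (Ddit4) passed in ret mutants, 1278 genes in R26P cerebrum, 135 between wild-type regions, 475 between R26P control regions, 29 for the region difference, and 68 genes and 0 members for the model difference; the block called no member in any comparison between regions. Leaving out arrays with Gh above 8 left 919 genes and 0 members in ret mutants, 0 members for the model difference and, in R26P cerebrum, where this was chosen after seeing the data, 237 genes and 0 members. Also chosen after seeing the data, leaving out all such arrays gave 24 genes between R26P control regions, 1 between R26P mutant regions, 7 for the region difference, and 130 genes and 0 members for the model difference. Leaving out both R26P mutant arrays of number 3 gave 15 genes between mutant regions and 6 for the region difference. Leaving out 1 array in turn gave 1153 to 1931 genes and 0 to 3 members in ret mutants, 1387 to 1945 and 2 to 3 in R26P cerebrum, 1117 to 1572 and 1 to 2 in R26P cerebellum, 12 to 159 between wild-type regions, 48 to 193 between R26P control regions, 0 to 42 between R26P mutant regions, 6 to 14 for the region difference, and 127 to 611 genes and 0 to 1 members for the model difference. Alternatives were run gene by gene for all 9 members in the mutant comparisons and for the few named in the others. Among these, 2 changed sign, both near 0 in R26P cerebellum: Pdk1 (-0.015) stood at 0.052 with renewed quantile normalization and at -0.123 to 0.128 without 1 array, and Ddit4 (0.058) at -0.363 to 0.499 without 1 array. The causes were not tested, except that fewer arrays or more genes tested enter some fits by construction.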
